A study of Homo sapiens with 6 samples.

Results

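The dispersed Y RNA copies are the windows of the count table that carry the class label Y_RNA and lie outside the chromosome 7 cluster that holds the functional Y RNA genes. They number 69 of 73 Y RNA windows and of 53603 windows in all. Each window is 400 bp long (150 bp before a start site and 250 bp after it), so it covers a whole copy and its flanks, and levels of different windows compare at equal length. The 4 Y RNA windows left out hold RNY1, RNY3, RNY4 and RNY5, and serve below as the reference for the copies.

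Small RNA was sequenced from HEK293T, an established human embryonic kidney cell line, in 2 arms of 3 libraries. The siControl arm received a control siRNA and the siLa arm an siRNA against La, a protein made from SSB that binds new RNA polymerase III transcripts. Both were given by transient transfection at 150 nM for 48 h. The RNA was treated with a phosphatase and then with a polynucleotide kinase before library preparation, so RNA with different chemical ends could be cloned. The labels name no other genotype, agent or cell line.

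Y RNAs are short non-coding RNAs made by RNA polymerase III. Their ends pair into a stem, the stem binds the Ro60 protein, and the run of U at the 3′ end of a new transcript is the classical binding site of La. Many truncated or mutated copies of Y RNA genes have been scattered over the human genome by retrotransposition, and most lack the flanking promoter of the functional genes. Fragments cut from both ends of Y RNAs are common in small RNA libraries, and a short fragment can match a copy as well as the gene it came from.

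The copies fall into families by the Y RNA gene they resemble most. A sequence could be read for 65 of the 69 from GENCODE release 29 transcripts on GRCh38. The other 4 have no Y RNA transcript at their start site in GENCODE release 29, and for Y_RNA_52081 the RefSeq table lists RNY5P5, an RNY5 pseudogene, in the window. Of the 65, 32 were closest to RNY3, 30 to RNY1 and 3 to RNY4, with a median identity of 85.8% in each copy's best alignment. The same annotation holds 809 dispersed Y RNA copies, of which 48.3% are closest to RNY3, 41.4% to RNY1 and 10.3% to RNY4. RNY5 was not part of this assignment, because no RNY5 sequence was used here.

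The sequences that the results turn on are printed 5′ to 3′, from GENCODE release 29 on GRCh38. The first set shows Y_RNA_51508 (chr1:23370254-23370346, plus strand) under RNY4 (chr7:148963315-148963410, plus strand). Capitals mark the 24 bases that both share from the first base on.
RNY4: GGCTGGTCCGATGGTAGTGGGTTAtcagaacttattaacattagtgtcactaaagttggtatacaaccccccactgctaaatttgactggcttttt
Y_RNA_51508: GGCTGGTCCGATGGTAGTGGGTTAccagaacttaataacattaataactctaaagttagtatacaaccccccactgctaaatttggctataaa

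The next set shows RNY1 (chr7:148987136-148987248, minus strand) and 4 copies that hold bases 85 to 104 of RNY1 without a change, which capitals mark. The copies are Y_RNA_51390 (chr12:95617689-95617786, plus strand), Y_RNA_52138 (chr6:99526097-99526205, plus strand), Y_RNA_52617 (chr1:160326104-160326216, minus strand) and Y_RNA_53023 (chr20:30309015-30309126, minus strand).
RNY1: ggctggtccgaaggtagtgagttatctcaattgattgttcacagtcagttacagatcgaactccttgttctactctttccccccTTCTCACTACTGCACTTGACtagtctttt
Y_RNA_51390: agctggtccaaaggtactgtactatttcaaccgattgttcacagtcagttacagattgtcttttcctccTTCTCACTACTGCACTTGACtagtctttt
Y_RNA_52138: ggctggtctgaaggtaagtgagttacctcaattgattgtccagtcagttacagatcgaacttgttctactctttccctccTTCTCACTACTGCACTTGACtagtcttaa
Y_RNA_52617: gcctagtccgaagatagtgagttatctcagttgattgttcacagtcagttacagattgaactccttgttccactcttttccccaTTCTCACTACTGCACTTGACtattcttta
Y_RNA_53023: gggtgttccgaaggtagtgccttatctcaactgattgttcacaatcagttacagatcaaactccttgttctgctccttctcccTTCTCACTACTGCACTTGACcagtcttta

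The last set shows the other 2 tested copies closest to RNY1, with the same stretch in capitals. Y_RNA_51634 (chr11:2372638-2372750, plus strand) carries A93G and C104A, and Y_RNA_51946 (chr22:19045256-19045367, plus strand) carries T92G, where positions count from the 5′ end of RNY1 and the base of RNY1 comes first.
Y_RNA_51634: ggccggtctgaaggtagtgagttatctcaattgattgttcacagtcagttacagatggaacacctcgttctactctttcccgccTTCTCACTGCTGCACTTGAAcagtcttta
Y_RNA_51946: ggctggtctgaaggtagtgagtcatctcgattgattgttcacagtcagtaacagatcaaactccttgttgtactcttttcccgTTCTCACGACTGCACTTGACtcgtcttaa

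Library totals ran from 3066299 to 4105806 counts. The SSB window PCG_40419 had 4, 3 and 3 counts in siControl replicates 1 to 3, against 1, 0 and 0 in the siLa replicates (two-sided exact permutation p = 0.1, the smallest possible with 3 against 3). PCG_12982, another SSB window, held 3 counts in all. They count small RNA at the start site and do not measure the mRNA, so the depth of the knockdown is not known from these counts. The design text calls the replicates biological without saying what was separate. The p-values below set the difference between the arms against the spread between these libraries. In bulk samples, fewer cells of a type and less RNA per cell cannot be told apart. siLa replicate 2 stood apart from the other libraries of its arm, as described for each result it touches. Near-identical copies can share reads, and how reads with several matching positions were assigned is not given in the sources used here. The count of a copy may therefore include reads made by the gene it resembles, and these cannot be told apart.

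Reads were spread very unevenly over the 69 copies. Of these, 19 had no count in any library, 19 had 1 to 10 counts over the 6 libraries, 16 had 11 to 100 and 15 had over 100. A count of 0 in a library allows a level of up to 0.778 to 1.08 CPM (counts scaled to a common library size with TMM factors), from 3 counts per library, and this limit covers counting error only. The number of copies with a count in a library was 38, 39 and 38 in siControl replicates 1 to 3 and 36, 40 and 38 in siLa replicates 1 to 3. This came to 38.3 ± 0.577 against 38 ± 2 copies (SD, n = 3 per arm), so the arms overlapped.

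Together the copies held a small share of the reads. Their summed counts were 4441, 2709 and 3178 in the siControl replicates and 2366, 3033 and 3116 in the siLa replicates. As a share of all counts this was 0.0941% ± 0.0128 in the siControl arm and 0.0882% ± 0.0108 in the siLa arm (SD, n = 3 per arm). The difference of -0.00589 percentage points was smaller than either SD. It was 0.0468 when counts outside the rRNA and 5S rRNA windows were the denominator, so its direction depends on that choice. That denominator is a smaller total, so the sizes of these differences do not compare, and the SDs above do not apply to the 0.0468. Set against the 4 functional genes, the copies' summed counts equalled 2.94% ± 0.553 and 2.95% ± 0.584 of the genes' counts.

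Most of these reads lay in 3 windows. The 3 most counted copies held 90.8%, 85.6% and 83.7% of all copy counts in siControl replicates 1 to 3, and 80.3%, 60.3% and 84.4% in siLa replicates 1 to 3. siLa replicate 2 was the lowest of the 6 libraries in this share.

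Y_RNA_52519 (chr11:47726894-47726992, minus strand) had the most reads of the 69 copies, resembles RNY3 and ends in TTTT. It lies in the gene FNBP4 on the same strand, and its 3′ end touches an exon of a retained-intron transcript of that gene. Its counts were 2686, 1361 and 1582 in siControl replicates 1 to 3 and 1095, 1165 and 1529 in siLa replicates 1 to 3. siControl replicate 1 was the highest library, and the other 5 overlapped across the arms. Its level was 505 ± 170 CPM in the siControl arm and 406 ± 70.2 CPM in the siLa arm (SD, n = 3 per arm), with a log2 fold change of -0.31 (SE 0.28, adjusted p = 0.456, edgeR). Without siControl replicate 1 it was -0.0040 (adjusted p = 0.994). It is the sole copy of the 65 that holds the first 20 bases of RNY3, which 7 of the 809 annotated copies hold.

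RNY3 gave a similar order of libraries. It had 8492, 4124 and 4430 counts in the siControl replicates and 3292, 2759 and 4012 in the siLa replicates, a log2 fold change of -0.49 (SE 0.30, adjusted p = 0.302, edgeR), and of -0.13 without siControl replicate 1. The copy's counts equalled 31.6%, 33.0% and 35.7% of those of RNY3 in the siControl libraries and 33.3%, 42.2% and 38.1% in the siLa libraries. siControl replicate 1 was thus the highest library for gene and copy, and the ratio of the copy to its gene overlapped between the arms.

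Y_RNA_51508 lies in an exon of ZNF436-AS1 on the same strand and lacks a run of T at its annotated end. Its counts were 751, 473 and 546 in the siControl replicates and 412, 413 and 589 in the siLa replicates. The arms overlapped, at 159 ± 32.0 and 152 ± 32.1 CPM (SD, n = 3 per arm), with a log2 fold change of -0.07 (SE 0.26, adjusted p = 0.867, edgeR). It is the sole copy of the 65 that holds the first 20 bases of RNY4, which 6 of 809 annotated copies hold, and it shares a further run of 27 bases with RNY4, at positions 59 to 85. RNY4 itself had 51980, 42240 and 52231 counts in the siControl replicates and 41917, 35674 and 51603 in the siLa replicates (log2 fold change 0.08, SE 0.22, adjusted p = 0.824, edgeR). The copy's counts equalled 0.983% to 1.44% of those of RNY4.

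Y_RNA_52891 is the third of the well-read copies, in a chromosome 17 window (chr17:42997758-42998157) with no Y RNA transcript at its start site in GENCODE release 29. Its counts were 597, 486 and 531 in the siControl replicates and 394, 252 and 512 in the siLa replicates. siLa replicate 2 was the lowest and the arms overlapped, at 146 ± 9.27 and 126 ± 45.6 CPM (SD, n = 3 per arm). The log2 fold change was -0.21 (SE 0.30, adjusted p = 0.633, edgeR), and it was 0.04 without siLa replicate 2 (adjusted p = 0.927). Of the 4 genes, its ratio to RNY5 was the steadiest over the libraries, at 1.67% to 2.01% with a coefficient of variation of 6.64%, a choice made after the ratios had been seen. The ratio was 1.86%, 1.93% and 2.01% in the siControl replicates and 1.79%, 1.67% and 1.78% in the siLa replicates, so every siLa library lay slightly below every siControl library. RNY5 had 32167, 25223 and 26355 counts in the siControl replicates and 22013, 15121 and 28772 in the siLa replicates, where replicate 2 was also the lowest library (log2 fold change -0.08, SE 0.27, adjusted p = 0.851, edgeR).

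**Figure D1:**
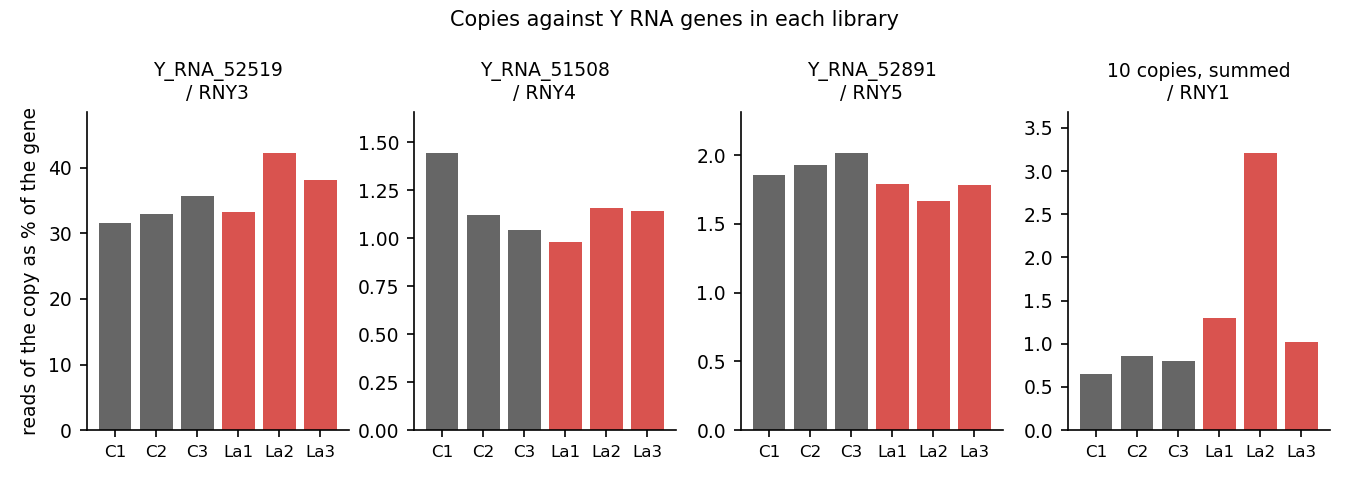
Counts of 3 well-read copies, and of the 10 copies holding bases 85 to 104 of RNY1, as a percentage of the counts of a Y RNA gene in each library. Grey bars are siControl replicates (C1 to C3) and red bars siLa replicates (La1 to La3). Each axis starts at 0 and has its own scale. The first 2 ratios overlap between the arms, the one to RNY5 is slightly lower in each siLa library, and the last is highest in siLa replicate 2, at 3.21%.

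The test between the arms was run over all windows with enough counts, 1064 in number, of which 18 are dispersed Y RNA copies. The other 51 copies, with at most 60 counts over the 6 libraries, were not tested. Of the 18, 12 had enough counts in the siControl libraries alone to enter the test, and Y_RNA_53023 entered through the siLa libraries alone, so counts over the 18 describe the copies that passed and not the whole set. No copy was called lower, where 4.79% of the tested windows were, and none was called higher, where 0.658% were (quasi-likelihood test of edgeR, threshold of 0.05 after Benjamini-Hochberg adjustment). At an unadjusted p under 0.05, 9 of 18 copies were higher, against 9.68% of all tested windows, and 0 were lower, against 14.2%. DESeq2 called 5 of the 18 higher, against 2.16% of tested windows. In edgeR, 6 were called higher with upper quartile factors, against 5.45% of tested windows in that fit. A replicate block called 4, against 1.88%, and the fit without siLa replicate 3 called 4, against 1.84%. Without siLa replicate 2 none was called, against 0.364%. The other scalings, other filters and collapsed identical rows also called none higher, and so did leaving out siLa replicate 1 or any siControl replicate. In those fits 0% to 0.752% of tested windows were called higher.

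Levels without overlap between the arms gave a similar count. In 7 of the 18 copies, every siLa library lay above every siControl library, against 14.1% of tested windows, and in 0 copies every one lay below, against 17.9%. The fitted log2 fold change was above 0 for 13 of the 18 copies and below 0 for 5, with a median of 1.09. The median over all 1064 tested windows was -0.05, and 46.8% of them had a fitted value above 0.

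Fitted values can be set out by family. Of the 12 tested copies closest to RNY1, 11 had a log2 fold change above 0, with a median of 1.28. Of all tested windows, 46.8% were above 0. For 5 of these 12 copies the siLa libraries met the test's minimum and the siControl libraries did not, which held for 0 copies of the other families. The values by family are therefore a description of the copies that passed. The 4 tested copies closest to RNY3 ranged from -0.47 to 0.42, with a median of 0.04. The summed counts of all 30 RNY1 copies were 270, 318 and 421 in the siControl replicates and 391, 1065 and 371 in the siLa replicates. siLa replicate 2 was far above the other 5 libraries, which overlapped across the arms in these raw counts. The 32 RNY3 copies together had 2820, 1425 and 1673 counts in the siControl replicates and 1166, 1297 and 1633 in the siLa replicates, most of them from Y_RNA_52519.

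Within the copies closest to RNY1, the reads lay on those that keep a stretch near the 3′ end of the gene. Bases 85 to 104 of RNY1, TTCTCACTACTGCACTTGAC, occur without a change in 10 of the 65 copies (15.4%), and in 58 of the 809 annotated dispersed copies (7.17%). The search used the strand of each copy. This 20-base stretch was chosen after the counts had been seen, as the one of RNY1 held by the most tested copies. The number of tested copies that hold it follows from that choice, so what comes next is a description. All 10 copies that hold it had enough counts for the test, with 48 to 679 counts over the 6 libraries and a median of 183. For 5 of them, Y_RNA_51360, Y_RNA_52433, Y_RNA_52040, Y_RNA_52615 and Y_RNA_53023, the siLa libraries met the minimum on their own and the siControl libraries did not. This held for 0 of the other 8 tested copies. The 8 RNY1 copies with 1 mismatch to it had 0 to 60 counts with a median of 8, and 1 of them was tested. The 12 with 2 or more mismatches had 0 to 206 counts with a median of 1, and again 1 was tested.

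**Figure D2:**
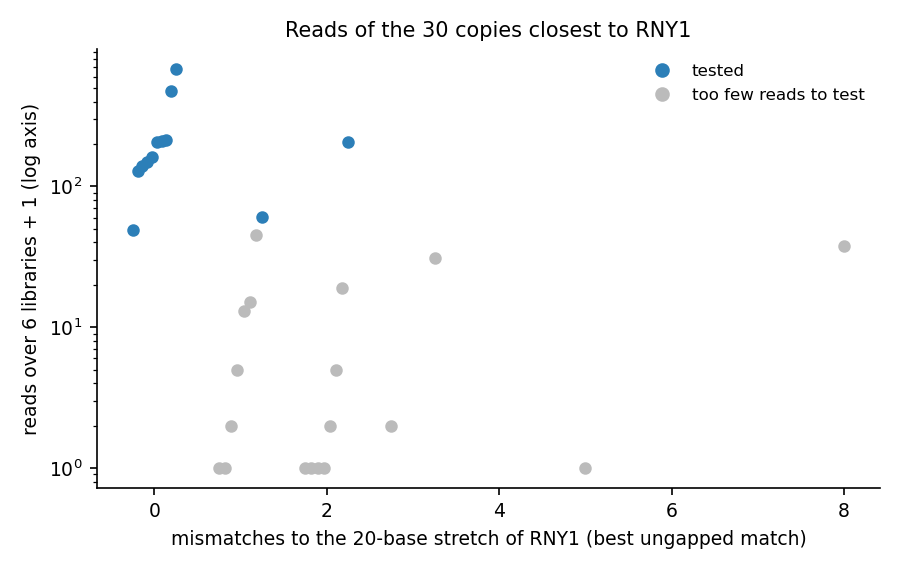
Counts over the 6 libraries, plus 1 and on a log axis, of the 30 copies closest to RNY1, against the number of mismatches to bases 85 to 104 of RNY1 in the best ungapped match. Blue points were tested and grey points had too few counts. The 10 copies with 0 mismatches all lie at 48 counts or more, and the others reach 206 counts, in Y_RNA_51634.

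Stretches of other lengths were held by the following copies. A 15-base version (bases 85 to 99) was held by the same 10 copies and 2 others that were not tested. An 18-base version (bases 85 to 102) was held by the 10 and 1 other. A 22-base version (bases 85 to 106) was held by 9 of the 10, and a 25-base version (bases 83 to 107) by 5. Identity over the whole copy did not pick them out in the same way, since the 10 ranged from 75.8% to 92.0% identity to RNY1, while Y_RNA_51634 without the stretch had 91.2%.

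**Figure D3:**
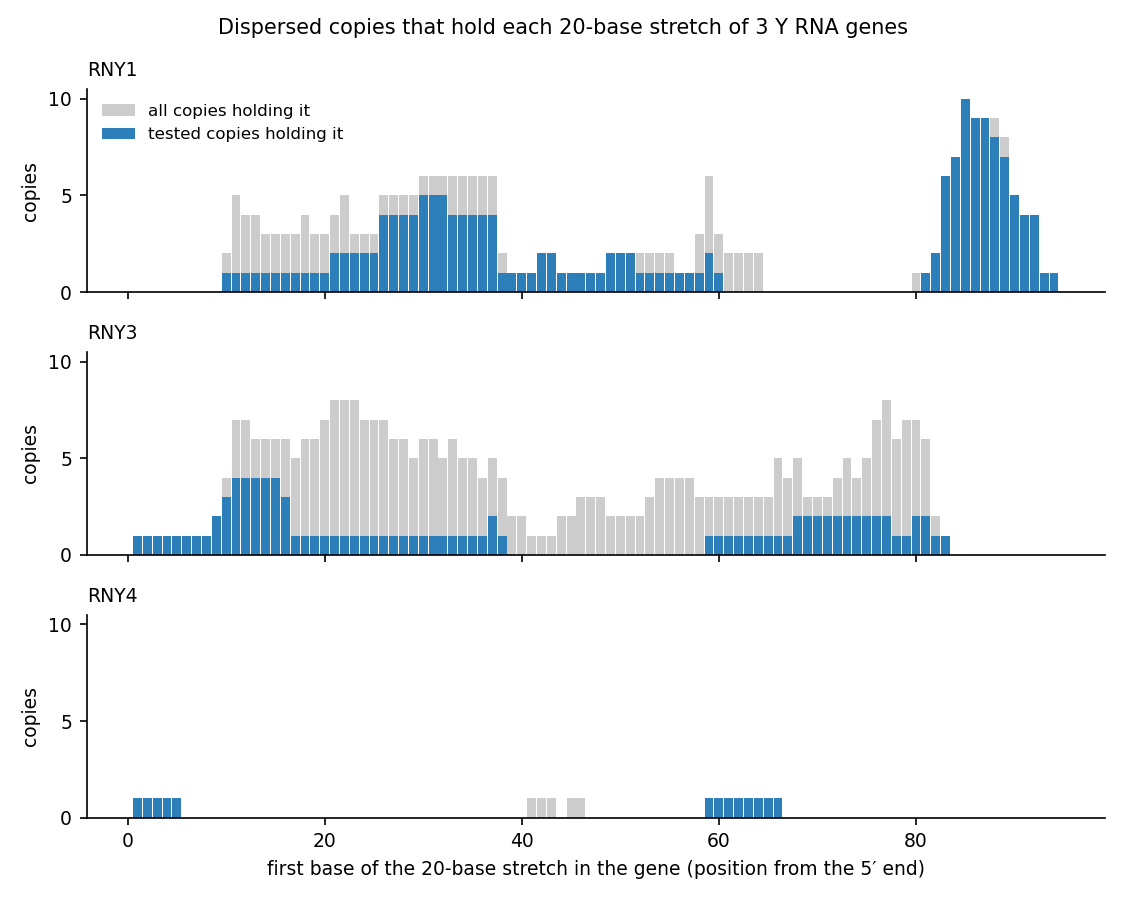
Number of dispersed copies (vertical axis) that hold each 20-base stretch of RNY1, RNY3 and RNY4, by the position of its first base (horizontal axis). Grey bars count all copies and blue bars the tested ones. The highest point is at base 85 of RNY1, with 10 copies, all tested, and no copy holds the first 20 bases of RNY1. The stretch at base 85 was chosen as the one of RNY1 held by the most tested copies.

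Few copies keep the 5′ end of a gene. No copy of the 65 holds the first 20 bases of RNY1, which 2 of 809 annotated copies hold. RNY3 and RNY4 have 1 copy each that does, Y_RNA_52519 and Y_RNA_51508, and these are the 2 most counted copies of the 69.

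Y_RNA_51390 had the most reads of the 10 copies with the RNY1 stretch. It lies in an intron of the pseudogene PGAM1P5 on the same strand, and it keeps the last 31 bases of RNY1 and its TTTT end. Its counts were 64, 78 and 110 in siControl replicates 1 to 3 and 91, 245 and 91 in siLa replicates 1 to 3. Scaled to library size, every siLa library lay above every siControl library, though replicates 1 and 3 did so narrowly and replicate 2 was far above. The level was 22.8 ± 5.91 CPM in the siControl arm and 44.5 ± 24.1 CPM in the siLa arm (SD, n = 3 per arm), a log2 fold change of 0.97 (SE 0.39, adjusted p = 0.165, edgeR).

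Y_RNA_52138 begins inside a coding exon of TSTD3, on the same strand, and runs on into the intron. Its counts were 48, 48 and 56 in the siControl replicates and 69, 192 and 65 in the siLa replicates. The arms did not overlap, and the siControl libraries were close to each other at 13.7 ± 1.07 CPM, against 33.9 ± 19.7 CPM in the siLa arm (SD, n = 3 per arm). The log2 fold change was 1.30 (SE 0.40, adjusted p = 0.0959, edgeR).

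Y_RNA_52617 lies in an intron of COPA, which encodes a coat protein of transport vesicles, on the same strand. Its counts were 18, 20 and 18 in the siControl replicates and 27, 99 and 24 in the siLa replicates. The arms did not overlap, and replicate 2 was again the highest. The level was 5.09 ± 0.711 CPM in the siControl arm and 15.5 ± 11.9 CPM in the siLa arm (SD, n = 3 per arm), a log2 fold change of 1.61 (SE 0.51, adjusted p = 0.103, edgeR).

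Y_RNA_53023 is intergenic, on chromosome 20, and had the fewest reads of the 10. Its counts were 5, 5 and 3 in the siControl replicates and 10, 15 and 10 in the siLa replicates. This copy differs from the others in that siLa replicate 2 was not far above its arm, at 1.31 times the mean of replicates 1 and 3. The level was 1.19 ± 0.365 CPM in the siControl arm and 3.72 ± 0.645 CPM in the siLa arm (SD, n = 3 per arm). The log2 fold change was 1.63 (SE 0.44), and its adjusted p of 0.0605 was the lowest of the 18 copies (edgeR). Its siControl counts are at or near the limit of 3 counts, and no siControl library reached the minimum for the test.

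The other copies with the RNY1 stretch also had siLa replicate 2 as their highest library. Y_RNA_53419 (chr7:43096732-43096844, plus strand, in an intron of the lincRNA AC005537.1 on the opposite strand) had 16, 24 and 28 counts in the siControl replicates and 21, 96 and 26 in the siLa replicates. Y_RNA_52040 (chr5:108891437-108891546, plus strand, in an intron of the tyrosine kinase gene FER) had 12, 12 and 19 counts against 20, 52 and 23. In both, the arms did not overlap once scaled to library size, and their log2 fold changes were 1.26 and 1.36.

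Y_RNA_51989 (chr4:1683420-1683529, minus strand, in an intron of FAM53A) had 13, 11 and 23 counts in the siControl replicates and 28, 68 and 17 in the siLa replicates. Y_RNA_52433 (chr17:40391232-40391338, minus strand, in an intron of TOP2A, the gene of DNA topoisomerase II alpha) had 11, 14 and 25 counts against 27, 55 and 17. Y_RNA_52615 (chr1:156484098-156484210, minus strand, in an intron of MEF2D, a transcription factor gene) had 6, 13 and 23 counts against 16, 56 and 13. In these 3, siControl replicate 3 was above siLa replicate 3, so the arms overlapped. Their log2 fold changes were 1.48, 1.21 and 1.22.

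Y_RNA_51360 (chr10:36626015-36626138, minus strand) is intergenic and, at 75.8%, the least like RNY1 of these 10 over its whole length. It had 12, 24 and 24 counts in the siControl replicates and 31, 91 and 26 in the siLa replicates, with no overlap once scaled and a log2 fold change of 1.49 (SE 0.50, adjusted p = 0.115, edgeR).

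Over the 10 copies, the fitted log2 fold changes were 0.97 to 1.63 with a median of 1.33. Their edgeR adjusted p-values were 0.0605 to 0.233. Of the 10, 9 were higher at an unadjusted p under 0.05 (edgeR), against 9.68% of all tested windows. All 7 tested copies without overlap between the arms were among these 10, and so were the 5 that DESeq2 called. The other 8 tested copies had fitted values of -0.47 to 0.42 with a median of -0.11 and edgeR adjusted p-values of 0.413 to 0.867, and all 8 overlapped between the arms. The stretch was chosen by the tested copies that hold it. For 5 of the 10 copies, and 0 of the other 8, the siLa libraries met the test's minimum and the siControl libraries did not. The contrast between the 10 and the 8 is therefore a description.

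**Figure D4:**
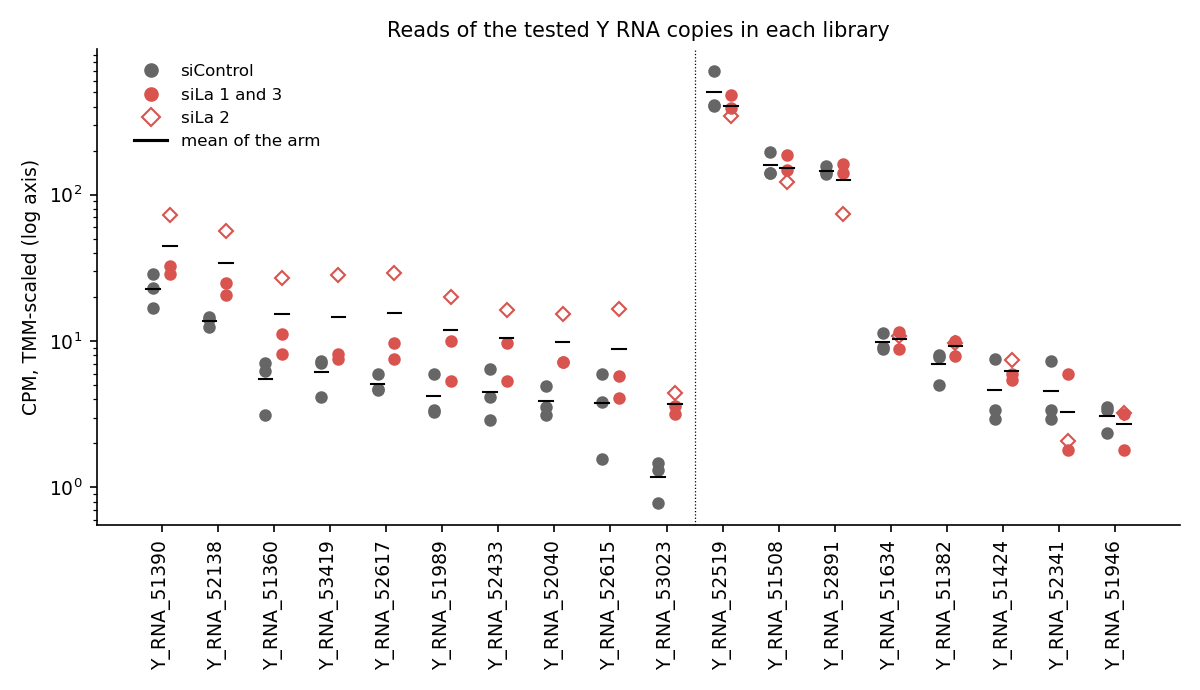
Level of each tested copy in each library, in TMM-scaled CPM on a log axis. Grey circles are siControl libraries, red circles siLa replicates 1 and 3, open diamonds siLa replicate 2, and short lines the arm means. The 10 copies left of the dotted line hold bases 85 to 104 of RNY1, and in these the diamond is the highest point. The 8 copies on the right do not hold it, and the arms overlap in each.

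The summed level of the 10 copies shows which library carried these differences. It was 53.5, 73.6 and 85.3 CPM in siControl replicates 1 to 3 and 122, 285 and 98.3 CPM in siLa replicates 1 to 3. The arms did not overlap, and siLa replicate 2 was far above the rest. For 9 of the 10 copies, replicate 2 was at least 2 times the mean of siLa replicates 1 and 3, with a median ratio of 2.55. The ratio was under 2 in all 8 other tested copies (0.491 to 1.31), and its median over all tested windows was 0.936, with 7.14% of windows at 2 or more. In that library the ratio reached 2 in 17.1% of rRNA windows, 13.3% of lncRNA windows and 12.3% of protein-coding windows, and in 0.897% of tRNA windows. The ratio was also above 2 in the 3 most counted copies that were not tested, none of which holds the stretch. It was 3.09 for Y_RNA_52509, 2.12 for Y_RNA_52345 and 3.09 for Y_RNA_51473, and 0.898 for the next by counts, Y_RNA_51678. The part of the make-up of siLa replicate 2 in the result was not tested.

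Without siLa replicate 2, the fitted values of the 10 copies were smaller and still above 0. This is a description, since the stretch that defines the 10 was chosen after the counts had been seen. In the fit of all libraries, the siLa libraries met the test's minimum and the siControl libraries did not for 5 of the 10, Y_RNA_53023 among them. Without siLa replicate 2, the median of the 10 was 0.72. The lowest adjusted p was then 0.210, for Y_RNA_53023, at a log2 fold change of 1.47 (edgeR, 3 siControl and 2 siLa libraries). For Y_RNA_52138 the log2 fold change was then 0.70 (adjusted p = 0.278), for Y_RNA_52617 0.74 (adjusted p = 0.370) and for Y_RNA_51390 0.41 (adjusted p = 0.523). The lowest values of the 10 were then 0.34 for Y_RNA_53419 (adjusted p = 0.666) and 0.35 for Y_RNA_52615 (adjusted p = 0.762), from 1.26 and 1.22 with all libraries. The remaining 4, Y_RNA_51360, Y_RNA_51989, Y_RNA_52433 and Y_RNA_52040, were at 0.80, 0.83, 0.71 and 0.87. The number of copies higher at an unadjusted p under 0.05 went from 9 to 3 (against 4.28% of the windows tested without that library), and the median over the 18 tested copies from 1.09 to 0.35.

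**Figure D5:**
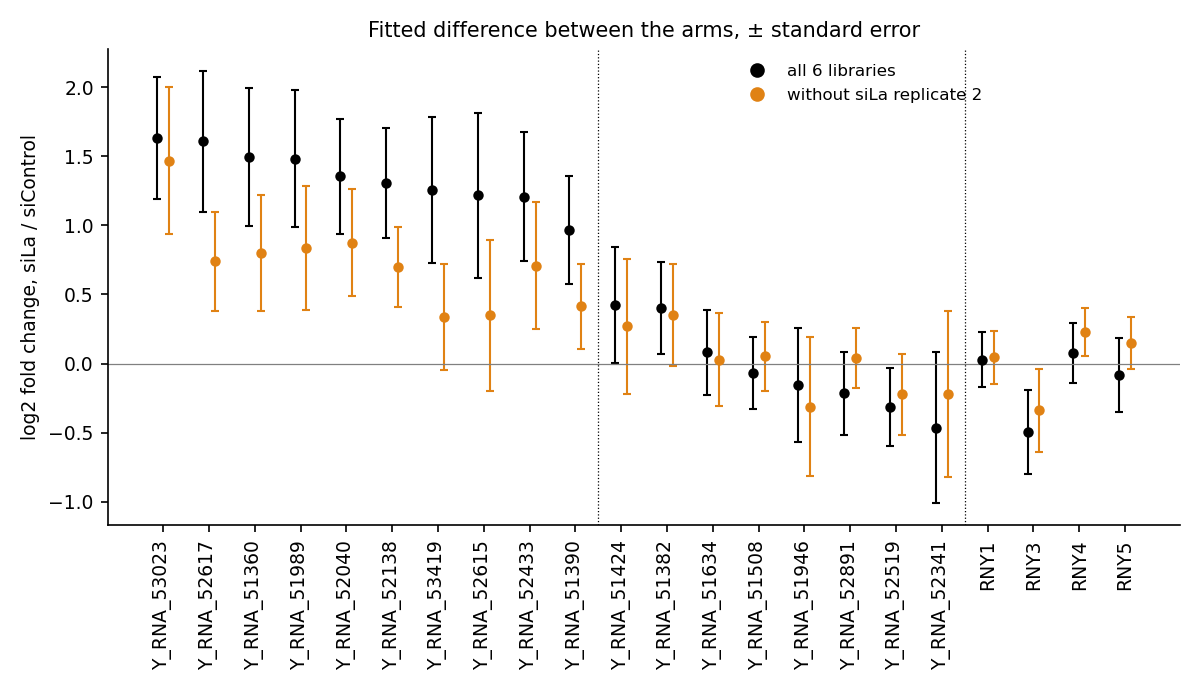
Fitted log2 fold change, siLa over control, with standard error, for the 18 tested copies and the 4 functional genes, with all 6 libraries (black) and without siLa replicate 2 (orange). Dotted lines separate the 10 copies with the RNY1 stretch, the other 8 copies, and the genes. The first 10 lie above 0 in both fits, with medians of 1.33 and 0.72. The stretch that defines them was chosen after the counts had been seen.

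RNY1 itself, which holds the same stretch, did not show this pattern. It had 31439, 29048 and 40958 counts in the siControl replicates and 26147, 30196 and 30661 in the siLa replicates, at 9137 ± 1295 and 9310 ± 386 CPM (SD, n = 3 per arm). The arms overlapped, with a log2 fold change of 0.03 (SE 0.20, adjusted p = 0.927, edgeR). The summed counts of the 10 copies equalled 0.652%, 0.857% and 0.803% of those of RNY1 in the siControl replicates and 1.30%, 3.21% and 1.02% in the siLa replicates. Every siLa library lay above every siControl library in this ratio.

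The levels of the 10 copies were correlated with each other. Over the 6 libraries, Pearson's r between the levels of any 2 of them was 0.515 to 0.990, with a median of 0.932 over 45 pairs. This is a description, since the copies share the stretch and the libraries, and siLa replicate 2 weighs on every pair.

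The 2 tested RNY1 copies without the intact stretch had other values. Y_RNA_51634 lies in an intron of CD81-AS1 on the opposite strand, and had 34, 31 and 44 counts in the siControl replicates and 32, 37 and 28 in the siLa replicates. The arms overlapped, at 9.81 ± 1.38 and 10.4 ± 1.40 CPM (SD, n = 3 per arm), with a log2 fold change of 0.08 (SE 0.31, adjusted p = 0.867, edgeR). Its counts equalled 0.0913% to 0.123% of those of RNY1. Y_RNA_51946, in an intron of DGCR2 on the opposite strand, had 9, 12 and 13 counts against 5, 11 and 10, and a log2 fold change of -0.16 (SE 0.41, adjusted p = 0.811, edgeR).

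The remaining 3 tested copies are closest to RNY3. Y_RNA_51382 (chr9:21160235-21160336, minus strand) is intergenic and ends in a run of 5 T. It had 31, 17 and 30 counts in the siControl replicates and 22, 33 and 32 in the siLa replicates. Y_RNA_51424 (chr17:50386145-50386246, minus strand, in an intron of LRRC59) had 29, 10 and 13 counts against 15, 25 and 19, and Y_RNA_52341 (chr1:175022479-175022580, minus strand, in an intron of MRPS14, a mitochondrial ribosomal protein gene) had 28, 10 and 13 against 5, 7 and 19. All 3 overlapped between the arms, with log2 fold changes of 0.40, 0.42 and -0.47. Leaving out each library in turn gave 0.21 to 0.52 for Y_RNA_51382, 0.18 to 0.98 for Y_RNA_51424 (without siControl replicates 2 and 1) and -1.30 to 0.056 for Y_RNA_52341 (without siLa replicate 3 and siControl replicate 1).

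Among the 51 copies that were not tested, the 3 with the most counts were Y_RNA_52509, Y_RNA_52345 and Y_RNA_51473. Y_RNA_52509 (chr6:34821445-34821542, plus strand, in an intron of UHRF1BP1) had 14, 4 and 9 counts in the siControl replicates and 5, 21 and 7 in the siLa replicates. Y_RNA_52345 (chr17:75431990-75432087, plus strand, intergenic) had 7, 5 and 10 against 7, 17 and 7. Y_RNA_51473 (chr15:99681786-99681877, minus strand, in an intron of MEF2A on the opposite strand) had 4, 5 and 10 against 5, 16 and 4. In all 3, siLa replicate 2 was the highest library and the other libraries overlapped across the arms. The first 2 resemble RNY3, and Y_RNA_51473 has 1 mismatch to the RNY1 stretch.

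Copies with reads had, in the median, more in common with the functional genes than copies without. Median identity to the closest gene was 87.3% for the 46 copies with a count and a sequence and 82.5% for the 19 with no count. The longest run of bases shared with the gene had a median of 26.5 bases with a count and 22 without, and of 29 in the 17 tested copies with a sequence and 22.5 in the 48 not tested. Over the 65 copies, Spearman's rho with the summed count was 0.52 for the longest run and 0.35 for identity. These are descriptions over copies, which share libraries and ancestry.

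Position in a gene also varied. Of the 69 copies, 22 lay in an intron of a gene on the same strand, 19 in an intron of a gene on the opposite strand, 20 between genes and 4 touched an exon. A count was present for 18 of the 22, 12 of the 19, 12 of the 20 and 4 of the 4, and for the 4 copies without an annotated transcript. Of the 10 copies with the RNY1 stretch, 6 were in same-strand introns, 1 in an opposite-strand intron, 2 between genes and 1 at an exon. Whether the counts use strand is not given in the sources used here, so reads of a host gene and of a copy inside it cannot be told apart. The windows of Y_RNA_51705 and Y_RNA_52828 overlap a U6 and a signal recognition particle RNA window of the same table, and had 24 and 4 counts.

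A run of T at the end of a gene stops RNA polymerase III and gives the transcript the U run that La binds. End runs were read at the last annotated base of each copy, and the bases beyond it were not searched. Of the 65 copies, 6 end in TTTT (9.23%), against 47 of the 809 annotated copies (5.81%). Of these 6, Y_RNA_52519, Y_RNA_51390 and Y_RNA_51382 were tested, with log2 fold changes of -0.31, 0.97 and 0.40 (edgeR adjusted p = 0.456, 0.165 and 0.413). The other 3, Y_RNA_51878, Y_RNA_51538 and Y_RNA_52289, had 12, 4 and 0 counts over the 6 libraries. Of the 10 copies with the RNY1 stretch, Y_RNA_51390 is the sole holder of such an end.

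Genes of proteins that bind or trim Y RNA were read too little to be tested. The list held 13 genes, among them RO60, SSB and the Y RNA-binding proteins YBX1, NCL and HNRNPK, with 31 windows at their start sites. None of the 31 passed the filter, and 5 had no count. The most counted, PCG_26538 at YBX1, had 38 counts over the 6 libraries. These windows count small RNA at start sites and do not measure the mRNAs.

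The authors' deposited table compares the arms over all 53603 windows. In the authors' deposited table none of the 69 copies passed an adjusted p under 0.05 in either direction, where 0.149% of its windows were lower and 0.00373% higher. The lowest adjusted p of a copy in the authors' deposited table was 0.528, for Y_RNA_52617 at a log2 fold change of 1.28. At an unadjusted p under 0.05, the authors' deposited table has 10 of the 69 copies higher, against 0.685% of its windows, and 0 lower, against 1.11%. These shares run over all 53603 windows, of which 31773 had no count in the 6 libraries, against 19 of the 69 copies. Its median log2 fold change was 1.01 over the 10 copies with the RNY1 stretch, 0.76 over the 18 copies tested here and -0.32 over the 1064 windows tested here (authors' deposited table). For these 10 copies the average log2 CPM in the authors' deposited table was 2.12 to 2.96 above that of the 6 libraries. The libraries behind that average are not known here.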

How the data were processed

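Small RNA was sequenced from 6 HEK293T libraries, 3 per arm. The authors deposited raw read counts per 400 bp window, per the file headers, and 0 of its count columns fell outside the study's 6 libraries. The authors' deposited comparison table, per the file headers, holds for each window a log2 fold change and average log2 CPM. It also holds a score (an F statistic) and a raw and adjusted p-value, as deposited. The submitters' processing notes name Trim Galore, Bowtie2, bedtools, edgeR, GRCh38 and hg38, without saying what each was used for. Library totals of 3066299 to 4105806 counts set the precision.

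The siLa and siControl arms (siRNA against La and control siRNA) were tested with edgeR 4.0.16 (R 4.3.3). Windows were kept by filterByExpr (10 counts at the median library size, 3.00 CPM, in at least 3 libraries), libraries were scaled with TMM factors, and a quasi-likelihood model was fitted to all 1064 windows that passed. Adjustment over those windows followed Benjamini and Hochberg, with a threshold of 0.05. The test itself gives no standard error, so each printed SE is the absolute log2 fold change divided by the square root of its F statistic. Printed CPM levels and limits are TMM-scaled, while the filter's CPM uses library totals. The fit was tested on simulated data first. Copies were matched to GENCODE release 29 transcripts that start at the window's start site and aligned to RNY1, RNY3 and RNY4 over their whole length (Biopython 1.88, match 1, mismatch penalty 1, gap opening -2, gap extension -0.5). Window starts were shifted by 1 to print browser positions.

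The members and lists were chosen with earlier results of these data known. The text names every copy that was called, every tested copy up to 20, the 3 most counted copies that were not tested, the 4 functional genes and SSB. Replicate numbers were not used to pair libraries, since deviations of same-numbered libraries correlated at 0.14, 0.23 and -0.46. Alternatives were other scalings, DESeq2 1.42.0, other filters, collapsed identical rows, a replicate block and leaving out each library. A sequence that would go with the most counted copy is not reported here.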

Additional observations from a re-analysis of the deposited data

How the results depend on the processing

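No setting called a copy lower. The number of copies called higher was 0 with TMM factors and edgeR, 6 with upper quartile factors, 5 with DESeq2 and 4 with the replicate block. Leaving out each library in turn gave 4 without siLa replicate 3 and 0 in every other such fit. The shares of all tested windows called higher were 0.658%, 5.45%, 2.16%, 1.88% and, without siLa replicate 3, 1.84% in these fits. Every copy called in any fit holds the RNY1 stretch. The stretch was chosen as the one held by the most tested copies, so this is a description. For 5 of the 10 tested copies with it, and 0 of the other 8, the siLa libraries met the test's minimum and the siControl libraries did not. With upper quartile factors the median of the 1064 windows was 0.26, against -0.05 with TMM factors, so those calls are relative to that shift. Copies higher at an unadjusted p under 0.05 (edgeR) numbered 3 to 10 in the leave-one-out fits. The 3 were without siLa replicate 2, against 4.28% of tested windows in that fit. The 10 were without siControl replicate 3, against 9.27%, and without siLa replicate 3, against 11.9%. The median log2 fold change of the tested copies was 0.35 to 1.19 in the leave-one-out fits. With no filter that median over all 69 copies was 0. The median of the 10 copies with the stretch was 0.72 to 1.58 in the leave-one-out fits, and all of these copies that were fitted stayed above 0 in every setting run. The share of all counts in the copies differed by -0.0114 to 0.00553 percentage points between the arms in the leave-one-out values. The difference was 0.0468 with counts outside rRNA and 5S rRNA windows as the denominator, which is a smaller total. The number of copies read differed by -1.33 to 0.667.

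Some fitted values changed sign, and the cause was not tested. With upper quartile factors, the log2 fold change was 0.017 for Y_RNA_52519, 0.26 for Y_RNA_51508, 0.11 for Y_RNA_52891, 0.15 for Y_RNA_51946 and 0.24 for RNY5. Y_RNA_51508 was at 0.0035 with RLE factors and 0.0034 with DESeq2. With library size alone, Y_RNA_51634 was at -0.0080, RNY4 at -0.0033 and RNY1 at -0.063, and with no filter they were at -0.17, -0.16 and -0.22. Without siControl replicate 1, Y_RNA_51508 was at 0.10, Y_RNA_52341 at 0.056 and RNY1 at -0.045, and without siControl replicate 2 RNY1 was at -0.030. Without siLa replicate 1, Y_RNA_51634 was at -0.020, Y_RNA_51946 at 0.028 and RNY1 at -0.0011. Without siLa replicate 2, Y_RNA_51508 was at 0.052, Y_RNA_52891 at 0.039 and RNY5 at 0.15. Without siLa replicate 3, RNY4 was at -0.12 and RNY1 at -0.071. Over the leave-one-out fits, Y_RNA_52519 ran from -0.53 to -0.0040, Y_RNA_51508 ran from -0.31 to 0.10, Y_RNA_52891 from -0.50 to 0.039, Y_RNA_51634 from -0.020 to 0.21, Y_RNA_52341 from -1.30 to 0.056, Y_RNA_51946 from -0.34 to 0.028, RNY1 from -0.071 to 0.15, RNY4 from -0.12 to 0.23 and RNY5 from -0.36 to 0.15. Of the other fits of single copies, 233 had the same direction and the same call, and 19 passed the threshold in the same direction. The settings for the copies at an unadjusted p, for the stretch and for the 4 functional genes were added after the data had been seen. Same-numbered libraries were not shown to be paired, and the pairing check is given with the methods. Depth limits the copies with few counts, since 51 of 69 could not be tested.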

Other observations

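The average level of the copies in the authors' deposited table differs from the level in the 6 libraries for the same 10 copies. For each copy with the RNY1 stretch, the average log2 CPM in the authors' deposited table was 2.12 to 2.96 above the average log2 CPM computed here from the 6 deposited count columns, with a median of 2.57. For the other 8 tested copies the same difference was -0.56 to 0.22, with a median of 0.10. Y_RNA_51390 was listed at 8.06 in the authors' deposited table and had 5.10 here, while Y_RNA_51634 was listed at 3.59 and had 3.42. Over all 1064 tested windows the median difference from the authors' deposited table was -0.11, and 55 windows (5.17%) had a difference of at least 2.12. For RNY1 the difference from the authors' deposited table was 0.02. Of the 69 copies, 19 had no count in the 6 columns, and the authors' deposited table lists these at an average log2 CPM of -0.42 to 0.59. The libraries behind that average are not given in the sources used here.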
